A study of Danio rerio with 6 samples.

Results

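Leukocyte signalling was followed through 7 genes in the olfactory rosettes of adult zebrafish (Danio rerio), the paired nasal organs that hold the olfactory epithelium. They encode the kinases syk and lyn, the adaptors card9, samsn1a and grap2b, and, though neither is a kinase or an adaptor, the Ras exchange factor rasgrp4 and the phosphatase ptprc. The genes were found by their symbol in the platform annotation, which gave 1 probe for each, so 7 of the 15617 probes tested. The compared tissue came from 3 samples of homozygous Rag1 mutants and 3 samples of their wild-type siblings, untreated fish of mixed sex aged 1 to 2 years, with 1 single-colour array per sample. The mutant allele is not given in the sources used here, and nothing states how many fish gave a sample, so errors describe only the spread between these samples. The labels of mutant replicate 2 conflict: the title and the strain name the mutant and the source names wild type, and the sample was counted as mutant.

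White blood cells carry surface receptors with no enzyme of their own. In mammals a Src-family kinase such as LYN phosphorylates the receptor or its partner chain, SYK or its T-cell relative ZAP70 docks there, and adaptors pass the signal on to Ras, calcium and the transcription factor NF-kB. PTPRC, the surface phosphatase CD45 found on nearly all white blood cells, keeps Src-family kinases ready to act, and is used as a general marker of those cells. Rag1 is needed to assemble antigen receptor genes, so fish without it lack functional T and B lymphocytes but keep myeloid cells.

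The arrays had a median gene spot 4.75 to 7.21 times as bright as the blank spots, and correlations across probes of 0.981 to 0.988 within a group and 0.963 to 0.973 between groups. All 7 genes lay above the 95th percentile of the blank spots on all 6 arrays, with raw brightness 2.05 to 33.7 times that of the median blank spot, and none lay near the ceiling of the scanner. The tissue was checked by its own genes: the surface epithelium gene epcam and the olfactory channel gene cnga2 were far above the blank spots on both sets of arrays. The rag1 probe read 6.68 and 6.74 (log2 brightness) on mutant arrays 1 and 2 and 11.92 on mutant array 3, against 6.48 to 6.71 on wild-type arrays, and gave no check of the genotype. Its group difference did not pass the test (limma adjusted p = 0.483). Mutant array 2, whose labels conflict, correlated at 0.983 or more with the other mutant arrays and at 0.973 or less with wild-type arrays. On it the T- and B-cell genes called lower in the mutants, zap70 (7.50), trac (9.72) and igl1c1 (8.02), lay below every wild-type array.

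The 7 genes were chosen by their log2 differences between mutants and siblings on these arrays, with ptprc added as a general leukocyte gene. The differences are therefore described here without a test, and no p-value is given for them. Of the 7, 6 were past an adjusted p of 0.05 in the fit across all probes and were higher in the mutants, where 2.43% of all probes were. In the same 6 every mutant array was above every wild-type array, as was so for 13.0% of all probes. Nothing is read from these shares, since they guided the choice. The general leukocyte gene ptprc was the exception in both counts. Because whole rosettes were measured, a higher level can reflect more cells of a type or more RNA per cell, and these cannot be told apart.

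Among the kinases, syk, which docks on phosphorylated receptor chains, read 9.89, 9.76 and 10.11 (normalized log2 brightness) on mutant arrays 1 to 3 and 8.12, 8.63 and 8.78 on wild-type arrays 1 to 3. The lowest mutant array stood 0.99 above the highest wild-type array. The difference was 1.41 (SE 0.19, n = 3 per group), or 2.66-fold.

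The Src-family kinase gene lyn read 9.59, 9.54 and 9.50 on mutant arrays and 8.47, 8.41 and 8.12 on wild-type arrays. Its mutant arrays lay closer together than those of any other of the 7 genes, with an SD of 0.05. It was 1.21 higher (SE 0.13), or 2.32-fold.

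Among the adaptors, card9 encodes a scaffold that in mammals links SYK-coupled receptors for fungal sugars to NF-kB in myeloid cells. It read 12.42, 12.11 and 12.13 on mutant arrays and 10.54, 9.85 and 9.90 on wild-type arrays. The difference was 2.12 (SE 0.21), or 4.35-fold, with a gap of 1.57 between the groups.

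The gene samsn1a, whose mammalian relative encodes an SH3- and SAM-domain adaptor of blood cells, read 10.18, 10.13 and 10.71 on mutant arrays and 8.14, 7.83 and 8.50 on wild-type arrays. Of the 7 genes it had the largest difference, 2.18 (SE 0.22), or 4.54-fold. On wild-type arrays its raw spots were 2.05 to 3.73 times the median blank spot, among the faintest of the 7 genes.

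The gene grap2b, related to the mammalian GRB2-family adaptor GRAP2 (GADS), best known from T cells, read 11.14, 10.85 and 11.26 on mutant arrays and 9.26, 10.09 and 10.12 on wild-type arrays. Wild-type array 1 lay 0.83 or more below the other wild-type arrays, which gave the largest wild-type SD of the 7 genes, 0.49. The difference was 1.26 (SE 0.25), or 2.39-fold.

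The exchange factor gene rasgrp4, which loads Ras with GTP and in mammals is known from mast cells and other myeloid cells, read 11.44, 11.38 and 11.75 on mutant arrays and 10.38, 10.14 and 10.35 on wild-type arrays. The difference was 1.23 (SE 0.15), or 2.35-fold, close in size to those of lyn and grap2b.

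The phosphatase gene ptprc read 12.30, 11.75 and 11.92 on mutant arrays and 12.03, 11.17 and 11.47 on wild-type arrays. The SD of pixels within its spot was 0.37 to 0.60 of the spot's intensity, beside a median of 0.26 over all gene spots. The upper value was the highest of the 7 genes, with samsn1a reaching 0.54 and card9 0.29. The groups overlapped, because wild-type array 1 was above mutant arrays 2 and 3. Between arrays of the same number, 1 to 3, ptprc was higher in the mutant by 0.27, 0.59 and 0.44. Only the number 2 stands in the titles of both groups, so the arrays are not known to be paired. Its difference was 0.43 (SE 0.24), or 1.35-fold, with 90.3% of all probes below it. It was 0.24 without wild-type array 2, 0.28 with mutant array 1 left out, and 0.67 when wild-type array 1 was dropped.

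**Figure D1:**
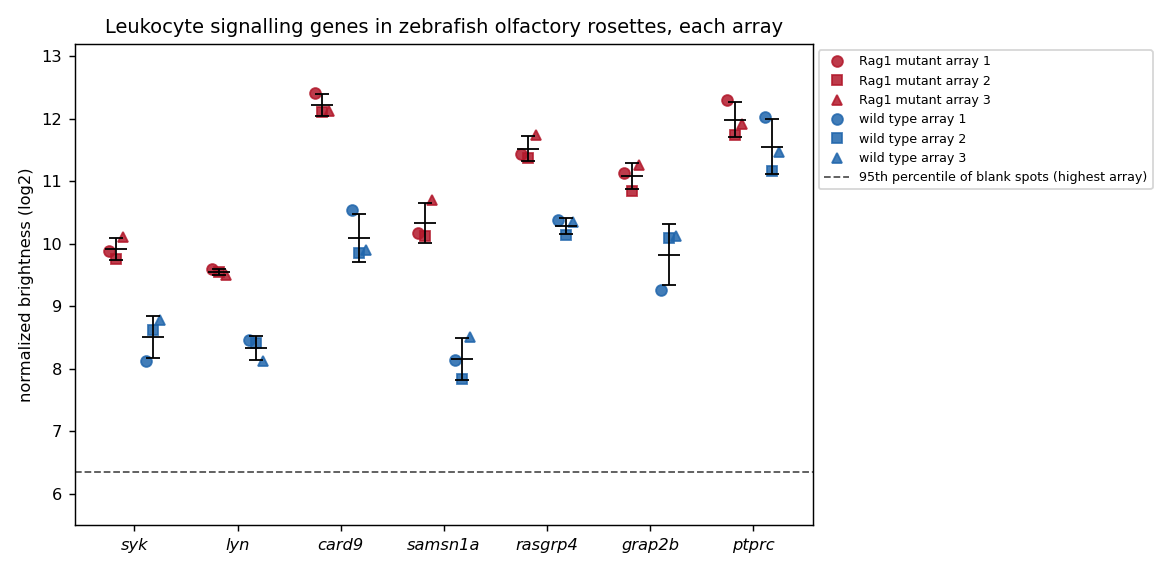
Normalized brightness (log2) of the 7 genes on each of the 3 Rag1 mutant arrays (red, left) and the 3 wild-type arrays (blue, right), with the mean and SD in black and the 95th percentile of blank spots dashed. The groups are apart for 6 genes and overlap for ptprc, where wild-type array 1 reads 12.03.

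Each gene was then set against ptprc on the same array, which asks how much of its difference goes beyond that of a general leukocyte gene. The excess over ptprc is the gene's log2 value minus that of ptprc, and it is given relative to its wild-type mean, so that 0 is the wild-type average. Only unequal change between 2 probes can be read from it, and as it comes from the same comparison it too is described without a test. All 6 had a positive mean excess, which is fixed once ptprc has the smallest difference. In 5 of 6 the lowest mutant array stood above the highest wild-type array. Among all 15617 probes 1.27% had groups apart in this way and higher in the mutants.

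For card9 the excess was 1.58, 1.82 and 1.67 on mutant arrays 1 to 3 and -0.03, 0.14 and -0.11 on wild-type arrays 1 to 3. The arrays of each group lay within 0.25 of each other, the tightest of the 6. Its mean excess was 1.69 (SE 0.10), or 3.23-fold.

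For samsn1a the excess was 1.28, 1.77 and 2.19 on mutant arrays and -0.50, 0.07 and 0.43 on wild-type arrays. The mean was 1.75 (SE 0.38), as large as that of card9 but with a wider spread, and the groups were 0.85 apart.

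The excess of syk was 0.64, 1.06 and 1.24 on mutant arrays and -0.86, 0.51 and 0.35 on wild-type arrays. Its groups were apart by only 0.13, less than the spread within either group. The mean excess was 0.98 (SE 0.47), and 0.56 without wild-type array 1.

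The excess of rasgrp4 had a mean of 0.80 (SE 0.28) and that of lyn a mean of 0.78 (SE 0.28). Their groups were apart by 0.17 and 0.05, again less than the spread within a group. These are the genes closest to ptprc in their change, though neither matched it in the mean.

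For grap2b the excess was 0.57, 0.83 and 1.08 on mutant arrays and -1.04, 0.66 and 0.38 on wild-type arrays, and the groups overlapped. Its mean of 0.83 (SE 0.54) became 0.31 without wild-type array 1, where grap2b was low and ptprc high. Without background correction the groups of syk and lyn overlapped as well, leaving 3 of 6 apart.

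**Figure D2:**
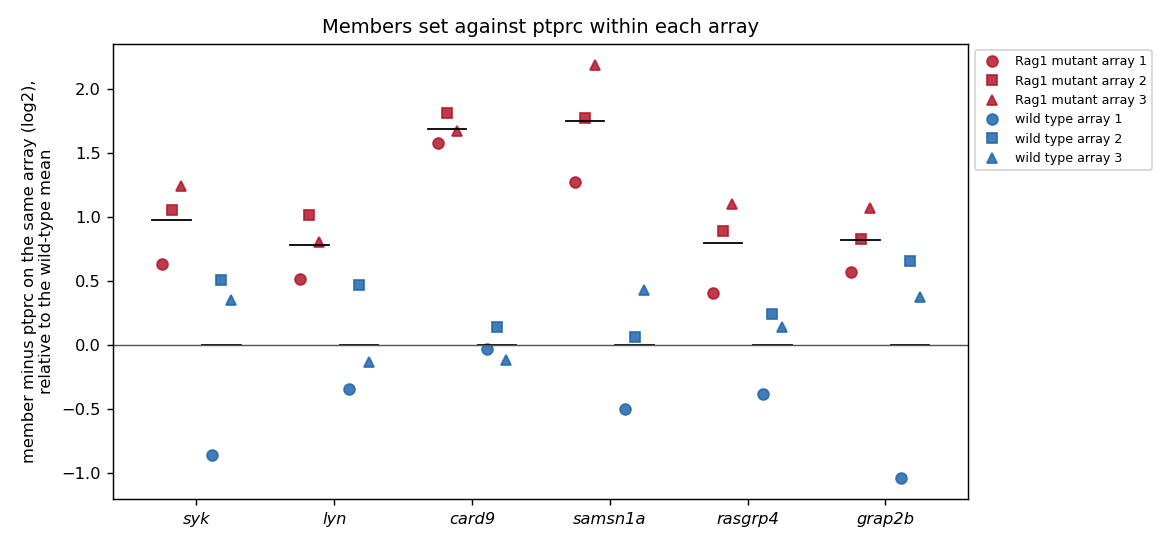
Log2 value of each gene minus that of ptprc on the same array, relative to the wild-type mean, for Rag1 mutant arrays (red, left) and wild-type arrays (blue, right), with group means as black lines. The groups are far apart for card9 and samsn1a, narrowly apart for syk, lyn and rasgrp4, and overlap for grap2b.

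ptprc is a single probe, so 14 other genes on the array, from a broad list of general leukocyte genes, were set beside it. Of these, 3 rose, or 21.4% beside 2.43% of all probes: the actin-bundling lcp1 (1.05, SE 0.19, limma adjusted p = 0.0249), hcls1, a substrate of Src-family and Syk kinases in blood cells (0.86, SE 0.14, 0.0206), and the lysosomal membrane gene laptm5 (0.80, SE 0.14, 0.0225). The other 11 did not pass, among them ncf1 of the phagocyte oxidase (0.50, SE 0.37), the chemokine receptor gene cxcr4b (0.41, SE 0.27) and the lymphoid transcription factor gene ikzf1 (0.38, SE 0.16). The list also held blood transcription regulator genes not confined to mature leukocytes: tal1 (0.275), myb (0.40), lmo2 (0.08), runx1 (-0.03) and gata2a (-0.15). The invariant chain gene cd74a was saturated on 2 mutant and 2 wild-type arrays and could show no change. The list's median was 0.33, against 0.01 over all probes, and 4 of the 14 lay above ptprc. None reached the 1.21 of lyn, but without wild-type array 1 lcp1 was at 1.21 and above grap2b at 0.98. Leaving out 1 array ended the calls of lcp1 and hcls1 (mutant 1, mutant 3, wild-type 2 or wild-type 3) and of laptm5 (any mutant array or wild-type 3), with a limma adjusted p of up to 0.0864.

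With the mean of these 14 genes on each array in place of ptprc, a choice made after the data were seen, all 6 signalling genes had groups apart, where 3.39% of all probes did. That mean read 11.24 to 11.43 on mutant and 11.03 to 11.06 on wild-type arrays. Its genes include cxcr4a (-0.54, SE 0.21) and runx1, which at 6.37 to 6.57 lay close to the 95th percentile of the blank spots. Genes that changed little, such as lmo2, gata2a and runx1, lower the difference of this mean and so enlarge the excess over it. Subtracting this mean took 0.30 from each of the 6 differences, which had guided the choice of genes, less than ptprc did. The mean excess was then 1.88 (SE 0.24) for samsn1a and 1.82 (SE 0.24) for card9. It was 1.12 (SE 0.21) for syk, 0.96 (SE 0.30) for grap2b, 0.94 (SE 0.10) for rasgrp4 and 0.91 (SE 0.12) for lyn. The order of the 6 means must match the one found against ptprc, since the same value is subtracted from all 6 differences. Since cd74a was saturated and cd74b lay close to it in brightness, the mean was also taken over the 12 other genes. Against it all 6 again had groups apart, where 3.00% of all probes did, and the excess was smaller, from 0.88 (SE 0.13) for lyn to 1.79 (SE 0.24) for card9 and 1.85 (SE 0.23) for samsn1a.

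Set against each other, the 6 genes make 15 pairs, and in 6 pairs the difference within an array kept mutant and wild-type arrays apart. The same was so, in either direction, for 28.3% of all pairs of probes, so little can be read from that count. The 6 pairs had samsn1a or card9 as the gene with the larger change. In the mean difference samsn1a exceeded lyn by 0.97 (SE 0.35), rasgrp4 by 0.95 (SE 0.16), grap2b by 0.92 (SE 0.35) and syk by 0.77 (SE 0.25). card9 exceeded lyn by 0.91 (SE 0.20) and rasgrp4 by 0.89 (SE 0.25). Between samsn1a and card9 the difference was 0.06 (SE 0.38). No pair among syk, lyn, rasgrp4 and grap2b was kept apart, with differences of 0.02 to 0.20.

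Markers of neutrophils and macrophages were mostly higher in the mutants, and other blood cell types differed. Beside the counts of markers that follow, 2.43% of all probes were called higher and 2.36% lower. Of 6 neutrophil genes measured, 4 rose: lysozyme lyz (3.38, SE 0.37), myeloid peroxidase mpx (2.97, SE 0.40), the carboxypeptidase cpa5, which is also in the mast cell list (2.00, SE 0.23), and alox5ap of leukotriene synthesis (1.39, SE 0.26). Their list, averaged per array around each gene's own mean, ran from 0.30 to 1.38 on mutant arrays and from -1.03 to -0.85 on wild-type arrays. Of 10 macrophage genes 5 rose: the galectin lgals9l1 (2.13, SE 0.18), the myeloid transcription factor gene spi1b (1.46, SE 0.22), the pore-forming perforin-2 gene mpeg1.1 (1.195, SE 0.26), lcp1 and the receptor gene csf1ra (0.95, SE 0.13), with list averages of 0.32 to 0.54 on mutant and -0.63 to -0.28 on wild-type arrays. The differences of card9 and samsn1a lay beside those of cpa5 and lgals9l1, and those of syk, lyn, rasgrp4 and grap2b between csf1ra and spi1b. Genes of other cell types lay between csf1ra and spi1b as well, among them the immune-type receptor gene nitr4a (1.42) and the red cell genes hbaa1 (1.36) and cahz (1.19). The other macrophage genes did not pass: lgmn (0.97, SE 0.23), ctsk (0.89, SE 0.39), cd74b (0.15, SE 0.12), the saturated cd74a and apoeb (-0.06, SE 0.11). No gene of either list fell to the blank spots on any array, and ncf1, lcp1, cd74a and cd74b were also in the general leukocyte list.

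Genes of T and B cells fell or did not pass. Of 7 T-cell genes, zap70 fell by 2.06 (SE 0.29), and trac, the constant gene of a T-cell receptor chain, fell to 0.466 times its wild-type brightness. The T-cell genes runx3 (0.73, SE 0.22) and tox (0.56, SE 0.13) were higher in the mutants with groups apart and did not pass. The median of the T-cell list was -0.06. Of 4 B-cell genes the light chain gene igl1c1 fell by 2.04 (SE 0.26), and btk, a kinase of B cells and myeloid cells, was at -0.03 (SE 0.15). Among 5 genes of cytotoxic or innate lymphoid cells the immune-type receptor genes nitr4a (1.42, SE 0.26) and nitr3a (0.81, SE 0.14) rose. In the same list the receptor gene nitr2b (0.97, SE 0.24) did not pass, nor did nkl.4 (0.23, SE 0.16) and eomesa (-0.03, SE 0.16). Red cell genes had a median of 0.40, with 1 of 9 called, the carbonic anhydrase gene cahz (1.19, SE 0.24), and list averages of -0.09 to 0.50 on mutant and -0.32 to -0.21 on wild-type arrays. The haemoglobin genes hbaa1 (1.36, SE 0.31, limma adjusted p = 0.0558) and hbba1 (1.26, SE 0.39, 0.117) had larger differences than cahz and did not pass, and 5 of the 9 had groups apart with the mutants higher, beside 13.0% of all probes. Mast cell markers were few, and of 3 measured only cpa5 rose, a gene also in the neutrophil list. The 1 thrombocyte gene measured, thbs1b, was at -0.10 (SE 0.17), and of 5 endothelium genes, with a median of 0.29, none passed. With 1 array left out, limma's adjusted p reached 0.0506 for trac, 0.0516 for csf1ra, 0.0567 for spi1b, 0.0801 for nitr4a, 0.0945 for nitr3a, 0.0949 for alox5ap, 0.119 for cahz and 0.13 for mpeg1.1, so that these calls ended. Those of lyz, mpx, cpa5, lgals9l1, zap70 and igl1c1 held. Without both arrays numbered 2 the call of igl1c1 ended (limma adjusted p = 0.0571), as did that of zap70. The call of mpeg1.1 ended without any array but mutant 2, without background correction and with the misread print block kept. Those of cahz (limma adjusted p = 0.0618) and nitr4a (0.0549) also ended without background correction.

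Olfactory neuron genes moved the other way. The channel gene cnga2 read 11.43, 11.77 and 11.99 on mutant arrays and 12.86, 12.94 and 12.97 on wild-type arrays. It fell by 1.19 (SE 0.16, limma adjusted p = 0.0109), and the G-protein subunit gene gng13b fell by 0.69 (SE 0.15, 0.0453). The transcription factor gene ebf2, the third of the list measured, was at -0.43 (SE 0.13) and did not pass, with groups apart as for the other two. The call of cnga2 held with any 1 array left out and ended without both arrays numbered 2 (limma adjusted p = 0.1135). That of gng13b ended whichever array was left out (adjusted p up to 0.138). It also ended with no offset (limma adjusted p = 0.0618) and with the misread print block kept (0.056). The averages of the olfactory neuron list ran from -0.57 to -0.22 on mutant arrays and from 0.35 to 0.42 on wild-type arrays. The 11 surface epithelium genes lay between -0.23 and 0.29, with a median of 0.03. The part of any of these cell types in the levels of the 7 genes was not tested.

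**Figure D3:**
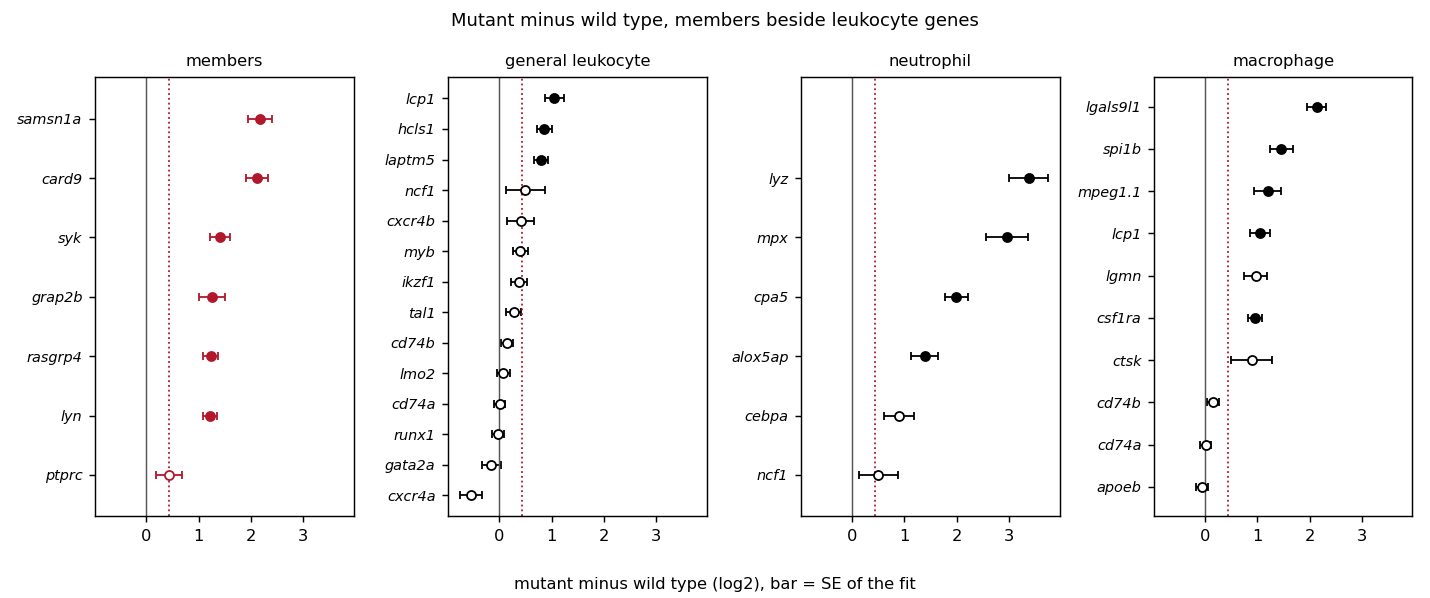
Mutant minus wild type (log2, with the SE of the fit) for the 7 genes (red) beside the general leukocyte, neutrophil and macrophage genes measured (black), with filled points past an adjusted p of 0.05 and the difference of ptprc dotted in red. The 6 signalling genes lie right of every general leukocyte gene, and lyz and mpx lie right of all of them.

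The mutant arrays differed among themselves in some of the blood cell markers. Mutant array 2 was below the mean of the other mutant arrays by 1.43 for lyz and by 1.44 for mpx. It was also the lowest mutant array for 6 of the 7 signalling genes, below that mean by 0.35 for grap2b, 0.36 for ptprc, 0.32 for samsn1a, 0.24 for syk, 0.22 for rasgrp4 and 0.17 for card9. For lyn mutant array 2 lay between the other mutant arrays. The gaps were not alike, as lyz read 14.02 and 14.23 on mutant arrays 1 and 3 and 12.69 on mutant array 2. Other markers differed: csf1ra was highest on mutant array 2 (9.31, beside 9.22 and 9.03), and lgals9l1 lay between the other mutant arrays. The haemoglobin genes hbaa1 (13.83, beside 14.67 and 15.03) and hbba1 were lowest there as well. For card9 mutant array 2 was level with mutant array 3 (12.11 and 12.13). For syk, samsn1a and rasgrp4 it was nearer to mutant array 1 than to mutant array 3. How many of all probes were lowest on mutant array 2 was not counted. Without mutant array 2 the group differences were 2.18 for card9, 2.28 for samsn1a, 1.49 for syk and 0.55 for ptprc. Leaving out the lowest mutant array raises the mutant mean, so nothing is read from these larger values. The difference of lyn stayed at 1.21.

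The other genes of these pathways showed little difference. In 6 lists of kinases, adaptors, the Ras pathway, phosphatases, lipid and calcium signalling and the NF-kB pathway, 51 genes were measured besides the 7, with a median difference of 0.09. Of these 1 rose and 1 fell, or 1.96% in each direction beside 2.43% of all probes higher and 2.36% lower, and 43 of the 51 lay within 0.5 of 0. None was above the 1.21 of lyn, and 5 were above ptprc.

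Of 6 other kinases none rose. zap70, the T-cell relative of syk, read 8.08, 7.50 and 6.80 on mutant arrays and 9.67, 9.49 and 9.41 on wild-type arrays. It fell by 2.06 (SE 0.29, limma adjusted p = 0.0123), in the direction opposite to syk, with every mutant array below every wild-type array, and had no call without both arrays numbered 2 (adjusted p = 0.119). The Src-family relatives of lyn did not pass: yes1 was at 0.31 (SE 0.19) at its brighter probe and at -0.03 at the other, and fyna at -0.80 (SE 0.47). The kinase gene csk, whose product restrains Src-family kinases in opposition to ptprc, was at 0.42 (SE 0.12) with groups apart and did not pass (limma adjusted p = 0.102).

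Among 11 other adaptors none passed, the largest being shc1, which links receptors to Ras (0.63, SE 0.17). The 7 other Ras pathway genes lay between -0.09 and 0.27, with rasgrp3, a relative of rasgrp4, at the low end (-0.09, SE 0.16). Among 8 other phosphatases the range was -0.24 to 0.31. Of 12 lipid and calcium signalling genes none passed, the largest being the leukocyte kinase subunit gene pik3cd (0.70, SE 0.22).

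In the NF-kB pathway, onto which card9 signals, ripk2 was the gene that rose. It encodes a kinase that relays bacterial sensing, and it read 8.27, 8.24 and 8.29 on mutant arrays and 7.42, 7.21 and 7.55 on wild-type arrays. The difference was 0.88 (SE 0.13, limma adjusted p = 0.0141), and the call ended when mutant array 1 or 3 or wild-type array 2 was left out (adjusted p up to 0.0593). traf2b was of like size (0.85, SE 0.25) and did not pass, and the other 5 genes lay between -0.12 and 0.36.

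**Figure D4:**
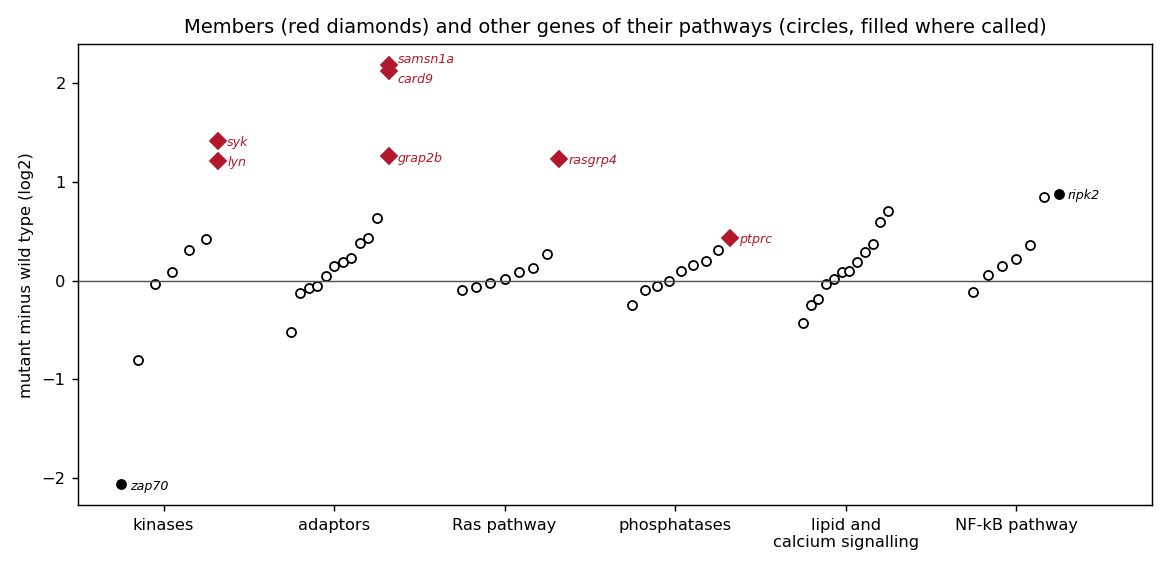
Mutant minus wild type (log2) for the 7 genes (red diamonds) and the 51 other genes of 6 pathway lists (circles, filled where past an adjusted p of 0.05). Most circles lie within 0.5 of 0, while ripk2 and zap70 are filled.

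Genes with the most similar pattern were sought among 5694 named probes by the root mean square distance between the values on the 6 arrays, each centred on its own mean. Nearest to ptprc were gstt1b (0.10), slc37a4a, micu2, znf438 and parp3 (0.13), all nearer than any of the other 6 genes, of which lyn was closest (0.48). Nearest to syk among the non-members were wu:fj29h11 (0.17), brf1a (0.19) and the immunoproteasome gene psmb8a (0.22), but grap2b was nearer still (0.13). lyn had bin1b (0.09), the replication helicase gene mcm6 (0.10) and cldn11b (0.16) nearest to it. samsn1a had phf11 (0.21), si:ch211-244b2.3 (0.24) and cpa5 (0.31) nearest to it. With 6 arrays in 2 groups, these distances describe these arrays only.

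No difference of the 7 genes changed sign with the processing. Over 16 alternatives card9 ranged from 1.99 to 2.35, samsn1a from 1.898 to 2.41, syk from 1.22 to 1.56, lyn from 1.03 to 1.36, rasgrp4 from 1.12 to 1.31 and grap2b from 0.98 to 1.50. ptprc stayed between 0.24 and 0.67, below each of the other genes throughout. The low end of samsn1a came without background correction and its high end with no offset.

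**Figure D5:**
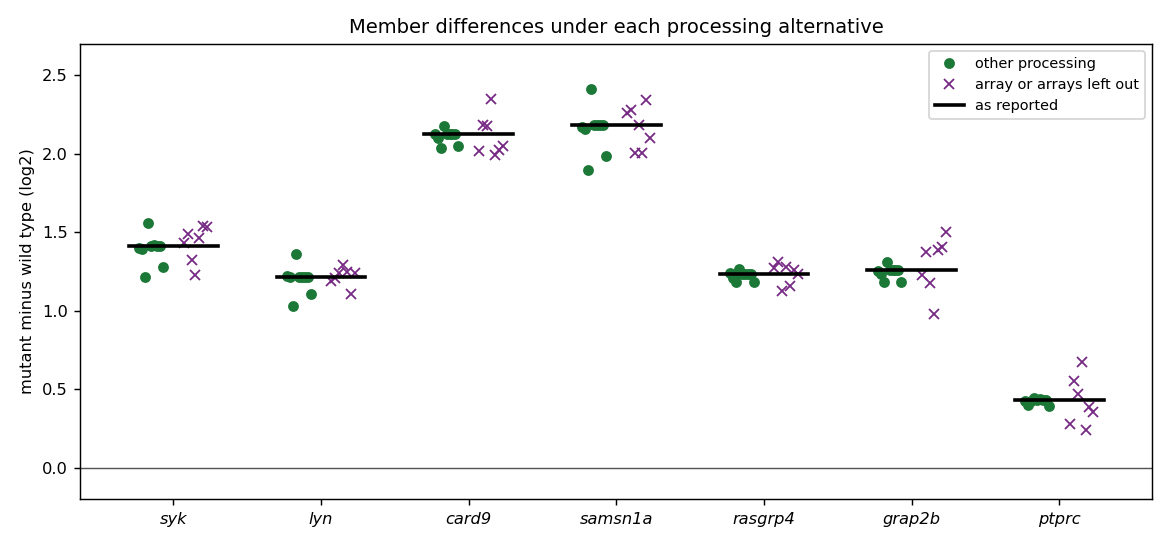
Mutant minus wild type (log2) for the 7 genes as reported (black line), under other processing (green circles) and with 1 array or both arrays numbered 2 left out (purple crosses). The points of card9 and samsn1a stay above 1.8, and those of ptprc stay below those of every other gene.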

How the data were processed

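The 7 genes and all gene lists were chosen with earlier results of these data known. Per the file headers, the deposited scanner tables give 1 raw intensity per spot with its local background, neither subtracted nor normalized; how the spots were measured is not given in the sources used here. The intensity was divided by 100, as its ceiling of 6553500 implies. The SDs of pixels, also an intensity in the deposited tables, were set against the intensity of their spots and entered no fit. The table of values deposited by the authors gives each probe as a ratio to its median over the arrays; the scaling before that is unknown, and it served as an alternative. A print block of 400 spots, misread by 1 row on wild-type array 2 (r = 0.241 with the other arrays at its own place, 0.981 at 1 row off), and 1 unreadable spot were left out.

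Background was corrected by normexp with an offset of 50 and arrays were quantile normalized (limma 3.58.1, R 4.3.3). Probes above the 95th percentile of the blank spots on all 3 arrays of a group were kept, 15617 of 15885. The comparison used limma's lmFit and eBayes (2-sided), p-values were adjusted by Benjamini-Hochberg over all probes kept, and the threshold was 0.05. The fit was tested on simulated data. Differences are mutant minus wild type in log2, with the SE of the fit, in which each probe's spread is drawn toward that of all probes. For the excess over ptprc or a list mean, and for pairs of genes, the SE comes from the pooled SD of the 2 groups without that step. These 2 kinds of SE are not directly comparable. Named were the 7 genes, their nearest probes, direct relatives and partners, called genes of each pathway list and up to 3 markers of each cell type. List genes were represented by their brightest probe. The genes traf2b, shc1, pik3cd, ncf1, cxcr4a, cxcr4b, ikzf1, runx1, tal1, lmo2, gata2a, myb, cd74a, cd74b, alox5ap, mpeg1.1, lgmn, ctsk, apoeb, thbs1b, runx3, tox, nitr2b, nkl.4, eomesa, hbaa1, hbba1 and epcam were named after their values were seen. Gene symbols are those of the platform annotation, brought up to date by gene identifier, and a probe may also detect close relatives of its gene. No sequences were used.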

Additional observations from a re-analysis of the deposited data

How the results depend on the processing

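Alternatives were cyclic loess, median scaling, no background correction, no offset, no filter, the misread print block kept, a replicate block, a robust trended fit, the authors' deposited table and each array left out. Leaving out both arrays numbered 2, and the general leukocyte mean, with or without cd74a and cd74b, in place of ptprc, were added after the data were seen. No difference of the 7 genes changed sign. Of all probes, 747 were called, and 247 to 598 when 1 array was left out (247 without mutant array 1, 493 and 298 without mutant arrays 2 and 3, 296 and 299 without wild-type arrays 2 and 3). Without both arrays numbered 2, which leaves 2 arrays per group, 80 probes were called, 1 of the 7 genes (samsn1a) and 0 of the listed pathway and general leukocyte genes (limma). Of those listed genes 5 were called as reported and 1 to 5 with 1 array left out (1 without mutant array 1 or 3, 2 without wild-type array 2 or 3). The call of grap2b ended without background correction and without any array but wild-type 1. Groups apart after subtracting ptprc numbered 5 of 6 as reported, 3 without background correction and 5 to 6 with 1 array left out.

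Arrays of the same number deviated together (r = 0.317, 0.223 and 0.284), each array correlating best with its own number, but only the number 2 stands in the titles of both groups. With the number as a replicate block 1115 probes were called, with 6 of the 7 genes among them as before, and shc1 (limma adjusted p = 0.0407) and traf2b (0.0453) were also called. traf2b was at 1.12 and called without mutant array 2 as well. The number of arrays limits the precision.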
